A study of Homo sapiens with 6 samples.

Results

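The set described here holds 42 human genes that repair crosslinked or broken DNA or signal its presence. They were taken by gene symbol from a count table of 58735 genes, and each of the 42 symbols matched 1 row. These genes, and the lists set beside them, were chosen with earlier results of these data known. The shares over all genes given beside their counts therefore serve as description only. All 42 passed the filter on low counts, which left 13503 genes for testing. Of the 42 genes, 13 belong to the Fanconi pathway, 20 to homologous recombination and 7 to the damage checkpoint, and RAD18 and PARP1 complete the set. The cells were RKO, an established line from a human colorectal carcinoma, and every library came from this 1 line. Polyadenylated RNA was sequenced without strand information from 3 libraries of cells given DMSO, the solvent control, and 3 libraries of cells given EZA. What EZA stands for, its dose and the length of the exposure are not stated in the labels, and no genetic change separates the groups. The series names the 3 libraries of a group biological replicates sequenced together. The p-values therefore weigh the difference between the groups against the spread within each group of these 6 libraries.

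The Fanconi pathway detects DNA strands that are linked to each other at a replication fork, marks the site by attaching ubiquitin to the FANCD2 and FANCI proteins, and lets nucleases cut the link out. Homologous recombination then copies the missing stretch from the sister DNA: broken ends are trimmed, BRCA2 and its partners prepare the ends to pair with the sister DNA, and helicases and a topoisomerase separate the joined molecules. The checkpoint kinases ATM and ATR sense breaks and stalled forks and hold the cell cycle through CHEK2 and CHEK1. Many of these genes are transcribed mostly in dividing cells. RKO is a line that lacks DNA mismatch repair.

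The libraries held between 14070611 and 18840954 counts. EZA replicate 3 stood apart: mitochondrially encoded genes took 0.203% of its counts, against 3.68% to 5.02% in the other 5 libraries. The chi-square statistic per degree of freedom was 14.2 between EZA replicates 1 and 2, at least 114 between either of these and EZA replicate 3, and at most 13.1 between DMSO libraries. No pair of libraries differed by as little as sampling noise. The counts of called genes below are therefore also given without EZA replicate 3. Of the epithelial markers, KRT18 (38.4 FPKM in DMSO), CDX2 (4.59), EPCAM (2.80) and KRT8 (2.71) were present, CDH1, LGR5 and MUC2 were at 0, and KRT19, KRT20 and VIL1 had at most 4 counts over all libraries. The 5 blood and immune markers were at 0, and of the 5 mesenchymal markers VIM (2.02 FPKM in DMSO) and ACTA2 (1.02) passed the filter, with log2 fold changes of -0.61 and 0.58 that were not called.

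In EZA-treated cells 13 of the 42 genes were lower and 0 were higher by edgeR's quasi-likelihood test (adjusted p below 0.05 over all 13503 tested genes). At an unadjusted p below 0.05, 23 were lower and 1, FANCE, was higher. Over all tested genes 7.82% were called lower (1056 genes) and 9.89% higher (1336 genes). With scaling to library size alone that split became 1270 lower and 1059 higher, and 14 of the 42 were called lower. The log2 fold change was negative for 34 of the 42 genes and positive for 8, with a median of -0.35, beside a median of -0.01 over all tested genes. All 3 EZA libraries lay below all 3 DMSO libraries in 25 of the 42 genes and above them in 3, beside 21.7% and 21% of all tested genes. Together the 42 genes took 0.207% to 0.215% of all counts in the DMSO libraries and 0.147% to 0.173% in the EZA libraries, 2 ranges that did not meet. By the threshold the series states, at least 1 on the log2 scale with an unadjusted p below 0.05, 3 genes were lower (FANCM, BRCA2 and MDC1) and 0 higher, beside 1.96% lower and 3.77% higher of all tested genes. The count depended on which libraries were used: 24 of the 42 were called lower and 0 higher without EZA replicate 3 (19.2% lower and 19.1% higher of all genes tested there), but 4 without DMSO replicate 1, 5 without DMSO replicate 3, 9 without EZA replicate 1, and 10 without either DMSO replicate 2 or EZA replicate 2. The share of all tested genes called lower changed too, to 0.451% without DMSO replicate 1, 0.529% without DMSO replicate 3, 4.38% without EZA replicate 1, 2.17% without DMSO replicate 2 and 3.86% without EZA replicate 2. In bulk libraries, fewer cells in a dividing phase and less RNA per cell cannot be told apart.

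**Figure D1:**
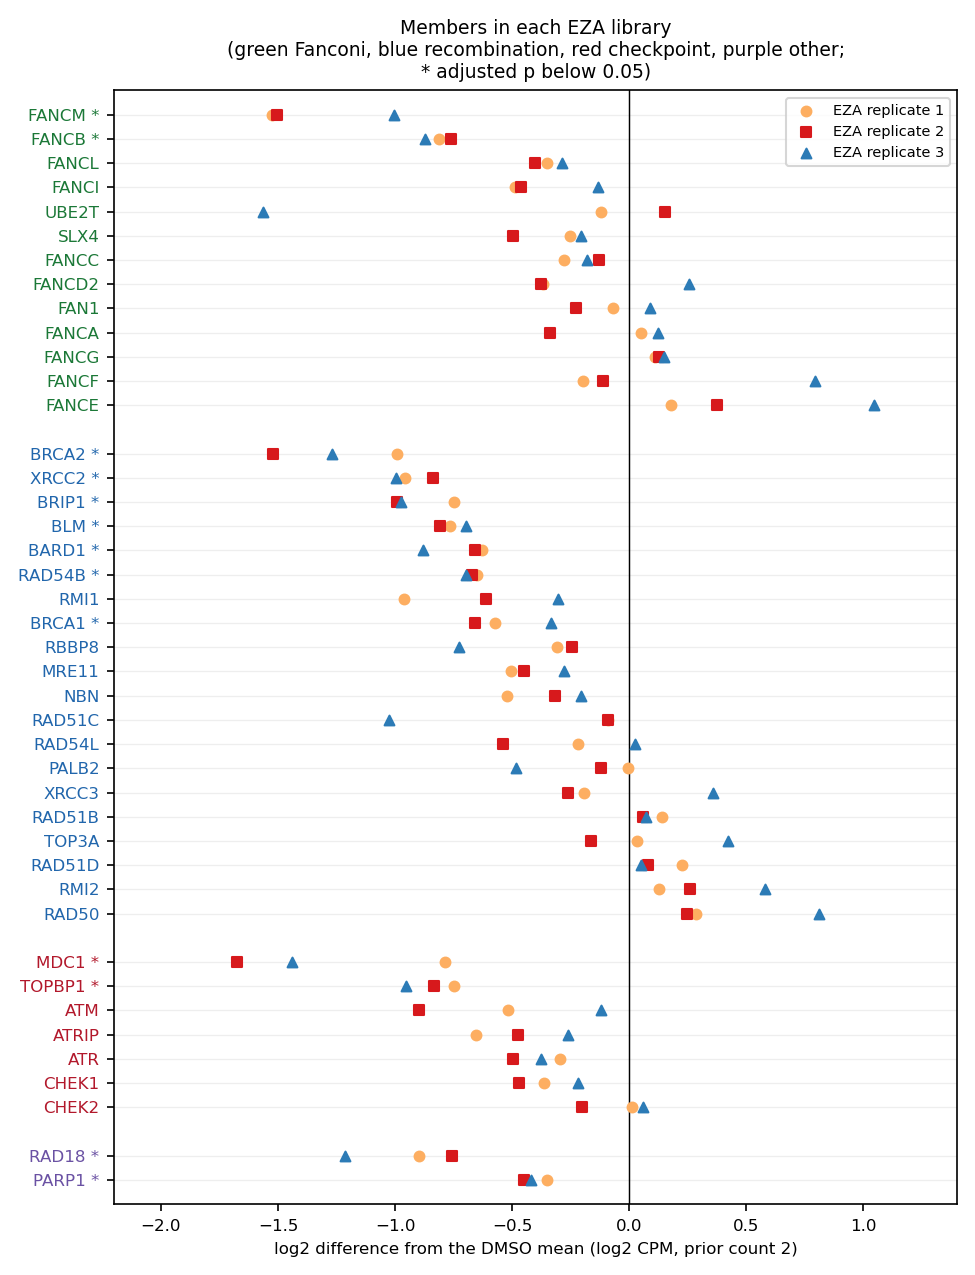
Distance of the single EZA libraries from the mean over DMSO (horizontal axis, log2 CPM with a prior count of 2) for each of the 42 genes, grouped by role; the 3 symbols are the 3 EZA libraries and an asterisk marks an adjusted p below 0.05. Most points lie left of 0, and EZA replicate 3 lies far from the other 2 EZA libraries for UBE2T, RAD51C, FANCF and FANCE.

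Of the 13 genes, 3 were called lower in each of 17 alternative analyses: FANCM, the helicase that recognises the stalled fork, XRCC2, a recombination factor, and TOPBP1, the activator of ATR. The 120 bases before the start of each, from RefSeq on GRCh38.p14, are shown because these 3 calls held throughout. The RefSeq starts of XRCC2 and TOPBP1 differ from the GENCODE starts used for the gene spans below, so all bases shown for TOPBP1 and part of those for XRCC2 lie within those spans. FANCM lies on the plus strand with its bases at chr14:45135810-45135929, and XRCC2 and TOPBP1 lie on the minus strand with theirs at chr7:152676142-152676261 and chr3:133661942-133662061. Each is written 5′ to 3′ along the gene, with capitals for a CCAAT box (CCAAT) or an E2F-type match (GGCGGGA, on either strand).
FANCM: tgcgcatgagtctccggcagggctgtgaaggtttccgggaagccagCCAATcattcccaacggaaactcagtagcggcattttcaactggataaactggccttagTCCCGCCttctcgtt
XRCC2: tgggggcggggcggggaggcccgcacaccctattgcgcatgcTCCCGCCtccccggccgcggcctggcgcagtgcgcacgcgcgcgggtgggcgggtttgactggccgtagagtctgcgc
TOPBP1: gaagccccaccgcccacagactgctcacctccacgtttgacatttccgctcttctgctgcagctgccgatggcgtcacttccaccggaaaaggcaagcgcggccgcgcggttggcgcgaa
The FANCM stretch holds 1 CCAAT box and 1 E2F-type match, the XRCC2 stretch holds 1 E2F-type match, and the TOPBP1 stretch holds neither of these exact strings. GGCGGGA was the only E2F-type string searched, so other forms of such a site were not looked for in any gene. In windows of 300 bases (250 before the start to 50 after it), 38 of the 42 genes had a RefSeq sequence, and each motif was counted separately on both strands whether or not it overlapped another. GGCGGGA was present in 18 of the 38 (47.4%), in 31.0% of the 9932 tested genes with a window and in 18% of all 27305 genes with one. It was present in 7 of the 12 genes called lower that had a window (BARD1, BLM, BRCA1, BRIP1, FANCB, FANCM and XRCC2) and in 11 of the 26 not called. CCAAT was present in 17 of the 38 (44.7%, beside 43.1% of tested genes), TTTGAA, the core of the cell cycle homology region, in 5 (13.2%, beside 13.4%), and the ATF4-type TGATGNAA in 1, RBBP8 (2.6%, beside 2.6%). A match describes the letters in the window and does not show that a factor binds there.

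With each gene placed in 1 class only, the Fanconi genes had the median log2 fold change nearest to 0 of the 3 classes, at -0.20. In this class 2 of 13 were called lower, FANCM and FANCB, and 0 were called higher, beside 7.82% and 9.89% of all tested genes. FANCM (chr14:45135930-45200890) had 16.0, 15.3 and 14.96 CPM in the 3 DMSO libraries and 5.27, 5.36 and 7.64 CPM in the 3 EZA libraries. All 3 EZA libraries were below all 3 DMSO libraries, and EZA replicate 3 was the highest of the EZA libraries. FANCM fell by 1.35 ± 0.19 on the log2 scale (SE, n = 3 per group, edgeR adjusted p = 0.00456), the largest decrease among the 42 genes, to 39.4% of the DMSO mean. FANCB (chrX:14690388-14873255), a subunit of the complex that attaches ubiquitin to FANCD2, had 7.26, 5.62 and 6.58 CPM under DMSO and 3.62, 3.75 and 3.46 CPM under EZA. The groups did not overlap, at a low level, and FANCB fell by 0.84 ± 0.19 (log2 fold change, edgeR adjusted p = 0.0210). That call was lost without DMSO replicate 1 (adjusted p = 0.110), DMSO replicate 3 (0.106) or EZA replicate 1 (0.0525).

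The other subunits of that complex did not pass the test. FANCE, which bridges the complex to FANCD2, had the highest log2 fold change of the 42 genes, 0.58 ± 0.22 (edgeR adjusted p = 0.0993), with 35.5, 41.9 and 35.9 CPM under DMSO and 42.6, 48.9 and 78.0 CPM under EZA. Its groups did not overlap, and EZA replicate 3 alone was far above the rest; without that library the log2 fold change was 0.28 (adjusted p = 0.0667). When low counts were not filtered FANCE was called higher (adjusted p = 0.00891). FANCA, FANCC, FANCF, FANCG and the ubiquitin ligase FANCL had log2 fold changes of -0.05, -0.20, 0.22, 0.13 and -0.35. UBE2T, the enzyme that hands ubiquitin to FANCL, had the highest mean level of the Fanconi genes, 22.3 ± 1.75 FPKM under DMSO (SD, n = 3). It had 40.9, 35.4 and 36.3 CPM under DMSO and 34.4, 41.6 and 12.6 CPM under EZA, so EZA replicate 3 was far below the DMSO libraries, replicate 1 just below them and replicate 2 above them (log2 fold change -0.34 ± 0.35, edgeR adjusted p = 0.524).

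The substrates of the ubiquitin step depended on EZA replicate 3. With all 6 libraries the log2 fold change was -0.35 for FANCI (edgeR adjusted p = 0.0958) and -0.13 for FANCD2 (adjusted p = 0.639). Both were called lower without EZA replicate 3, FANCI at -0.47 (adjusted p = 0.000508) and FANCD2 at -0.37 (adjusted p = 0.00975). SLX4, the scaffold that gathers nucleases at the link, was also called without that library. Its log2 fold change moved less, from -0.32 (adjusted p = 0.171) to -0.38 (adjusted p = 0.0203). The nuclease FAN1 had -0.07 (adjusted p = 0.774). Without EZA replicate 3 the Fanconi class had 5 genes called lower, beside 19.2% of all genes tested there. Without any other single library it had 1 or 2.

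With each gene placed in 1 class only, homologous recombination was the largest class, and 7 of its 20 genes were called lower and 0 higher. Over all tested genes the shares were 7.82% lower and 9.89% higher. The median log2 fold change of the class was -0.38. Some recombination genes, such as BRIP1, also count as Fanconi genes, so the split of calls between these classes depends on the placing. BRCA2 (chr13:32315086-32400268), a mediator of strand pairing, had 12.1, 11.6 and 12.7 CPM under DMSO and 6.03, 4.14 and 4.95 CPM under EZA. Its groups were far apart, and BRCA2 fell by 1.27 ± 0.19 (log2 fold change, SE, n = 3 per group, edgeR adjusted p = 0.00552). BRCA1 (chr17:43044295-43170245), the ubiquitin ligase that promotes recombination at breaks, had 63.2, 63.5 and 66.4 CPM under DMSO and 43.2, 40.8 and 51.04 CPM under EZA. Its groups did not overlap and it fell by 0.52 ± 0.13 (adjusted p = 0.0306), a call that was lost on leaving out any library other than EZA replicate 3 (adjusted p from 0.0773 without EZA replicate 1 to 0.151 without DMSO replicate 3). Its partner BARD1 (chr2:214725646-214809683) had 31.9, 29.2 and 30.7 CPM under DMSO and 19.7, 19.3 and 16.5 CPM under EZA. BARD1 fell by 0.72 ± 0.14 (adjusted p = 0.0121), and the call was lost without DMSO replicate 1 (0.0798) or DMSO replicate 3 (0.0756). BRIP1 (chr17:61679139-61863559), a helicase that binds BRCA1 and is also counted as FANCJ, had 27.6, 25.7 and 28.9 CPM under DMSO and 16.3, 13.7 and 13.9 CPM under EZA. It fell by 0.91 ± 0.14 (adjusted p = 0.00661), and the call was lost without DMSO replicate 1 (0.0536) or DMSO replicate 3 (0.0539). PALB2, which joins BRCA1 to BRCA2, was not called (log2 fold change -0.20, adjusted p = 0.443), and its groups overlapped.

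Of the 5 genes RAD51B, RAD51C, RAD51D, XRCC2 and XRCC3, whose products form mediator complexes of recombination, 1 was called. XRCC2 (chr7:152644776-152676193) had 41.9, 37.5 and 40.7 CPM under DMSO and 20.6, 22.3 and 20.01 CPM under EZA. The 3 EZA libraries sat close to each other at 52.3% of the DMSO mean, and XRCC2 fell by 0.93 ± 0.13 (edgeR adjusted p = 0.00443, the smallest of the 42 genes). RAD51B, RAD51C, RAD51D and XRCC3 were not called, with log2 fold changes of 0.08, -0.35, 0.12 and -0.02 and overlapping groups. RAD51C had 25.8 and 25.8 CPM in the first 2 EZA libraries and 13.4 CPM in EZA replicate 3, beside 24.3 to 31.7 CPM under DMSO. Of the 2 motor proteins of recombination, RAD54B (chr8:94371960-94475115) had 8.88, 7.41 and 9.14 CPM under DMSO and 5.33, 5.25 and 5.16 CPM under EZA. RAD54B fell by 0.69 ± 0.17 (adjusted p = 0.0287), but the call was lost on leaving out any library other than EZA replicate 3 (adjusted p from 0.0572 without DMSO replicate 2 to 0.146 without DMSO replicate 3). RAD54L was not called (-0.23, adjusted p = 0.353) until EZA replicate 3 was left out (-0.37, adjusted p = 0.0212).

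Of the 4 subunits that dissolve joined DNA molecules, only the helicase BLM was called. BLM (chr15:90717346-90816166) had 36.4, 31.6 and 33.8 CPM under DMSO and 19.9, 19.3 and 20.9 CPM under EZA. It fell by 0.76 ± 0.13 with no overlap (edgeR adjusted p = 0.00885), a call lost without DMSO replicate 1 (0.0644) or DMSO replicate 3 (0.0640). Its partner RMI1 had -0.62 (adjusted p = 0.0695), and was called lower by DESeq2 (adjusted p = 0.0421), when low counts were not filtered (0.0130) and without EZA replicate 3 (0.000145). The topoisomerase TOP3A (0.12) and RMI2 (0.33) were not called.

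The genes that trim broken ends were not called with all 6 libraries. NBN, the most abundant recombination gene at 22.6 ± 2.30 FPKM under DMSO (SD, n = 3), had 156, 127 and 143 CPM under DMSO and 98.3, 113 and 122.5 CPM under EZA. Its EZA libraries were all below its DMSO libraries by a small margin (log2 fold change -0.35 ± 0.14, edgeR adjusted p = 0.107). Its partner MRE11 had -0.41 (adjusted p = 0.0638), and RBBP8, which starts the trimming and is also called CtIP, had -0.42 (adjusted p = 0.121). When EZA replicate 3 was left out, NBN (adjusted p = 0.00297) and MRE11 (0.00542) were called lower and RBBP8 was not (0.0718). RAD50, the third subunit with MRE11 and NBN, had 1.81, 2.43 and 2.30 CPM under DMSO and 2.67, 2.60 and 3.89 CPM under EZA (0.48 ± 0.26, adjusted p = 0.233). RAD50 had only 247 counts over the 6 libraries and 0.219 FPKM under DMSO, the lowest level of the 42 genes. On the annotation, 76.9% of its exon bases are shared with a second protein-coding gene on the same strand, so its level and its direction are uncertain. The recombination class had 11 genes called lower without EZA replicate 3, beside 19.2% of all genes tested there. It had 2 without DMSO replicate 1 or DMSO replicate 3 and 5 without any of the other libraries.

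All 7 checkpoint genes had a negative log2 fold change, 6 of them with EZA libraries all below DMSO libraries, and 2 were called lower. Over all tested genes, EZA libraries were all below DMSO libraries in 21.7%, and 7.82% were called lower. MDC1 (chr6:30699807-30717447), the scaffold that holds repair factors at marked chromatin beside a break, had 87.8, 107 and 84.1 CPM under DMSO and 53.5, 28.8 and 34.0 CPM under EZA. The EZA libraries were all lower but spread over a wide range, and MDC1 fell by 1.26 ± 0.23 (log2 fold change, SE, n = 3 per group, edgeR adjusted p = 0.0108); the call was lost without DMSO replicate 1 (-1.30, adjusted p = 0.0632). TOPBP1 (chr3:133598175-133662380) was the most abundant checkpoint gene at 18.03 ± 1.16 FPKM under DMSO (SD, n = 3). It had 143, 125 and 136 CPM under DMSO and 79.9, 75.3 and 69.2 CPM under EZA, well apart, and fell by 0.84 ± 0.12 (adjusted p = 0.00530). ATM had -0.48 (adjusted p = 0.108), ATR -0.39 (0.0565), the ATR partner ATRIP -0.46 (0.0706) and CHEK1, the kinase below ATR, -0.35 (0.0982), none of them called with all 6 libraries. These 4 were called lower without EZA replicate 3 (adjusted p = 2.32e-05, 0.00768, 0.00266 and 0.00465), with log2 fold changes of -0.70, -0.39, -0.56 and -0.42. That made 6 checkpoint genes, beside 19.2% lower of all genes tested there. ATR was also called lower by DESeq2 (adjusted p = 0.0301) and with scaling to library size alone (0.0458), and ATM when low counts were not filtered (0.0293). CHEK2, the kinase below ATM, had the highest log2 fold change of the class. It had 23.96, 21.8 and 23.8 CPM under DMSO and 23.4, 20.2 and 24.1 CPM under EZA, with groups that overlapped (-0.04 ± 0.14, adjusted p = 0.857). The class had 1 call without DMSO replicate 1 and 2 without each of the other libraries but EZA replicate 3.

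Both remaining genes were called lower. RAD18 (chr3:8775402-8963773), the ubiquitin ligase that marks PCNA at damaged templates, had 50.8, 37.0 and 47.7 CPM under DMSO and 23.9, 26.5 and 19.2 CPM under EZA. Its groups did not overlap and it fell by 0.96 ± 0.18 (log2 fold change, edgeR adjusted p = 0.0113), with the call lost without DMSO replicate 1 (0.0775) or DMSO replicate 3 (0.0668). PARP1 (chr1:226360210-226408154), which binds strand breaks and builds chains of ADP-ribose there, was the most abundant of the 42 genes at 48.2 ± 1.78 FPKM under DMSO (SD, n = 3). It had 346, 365 and 345 CPM under DMSO and 276, 257 and 263 CPM under EZA, narrow ranges that did not meet. PARP1 fell by 0.41 ± 0.11, to 75.4% of the DMSO mean (adjusted p = 0.0416), and this call was lost without any 1 library other than EZA replicate 3 (adjusted p from 0.0750 without EZA replicate 1 to 0.174 without DMSO replicate 3) and when no low-count filter was used (0.0703).

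**Figure D2:**
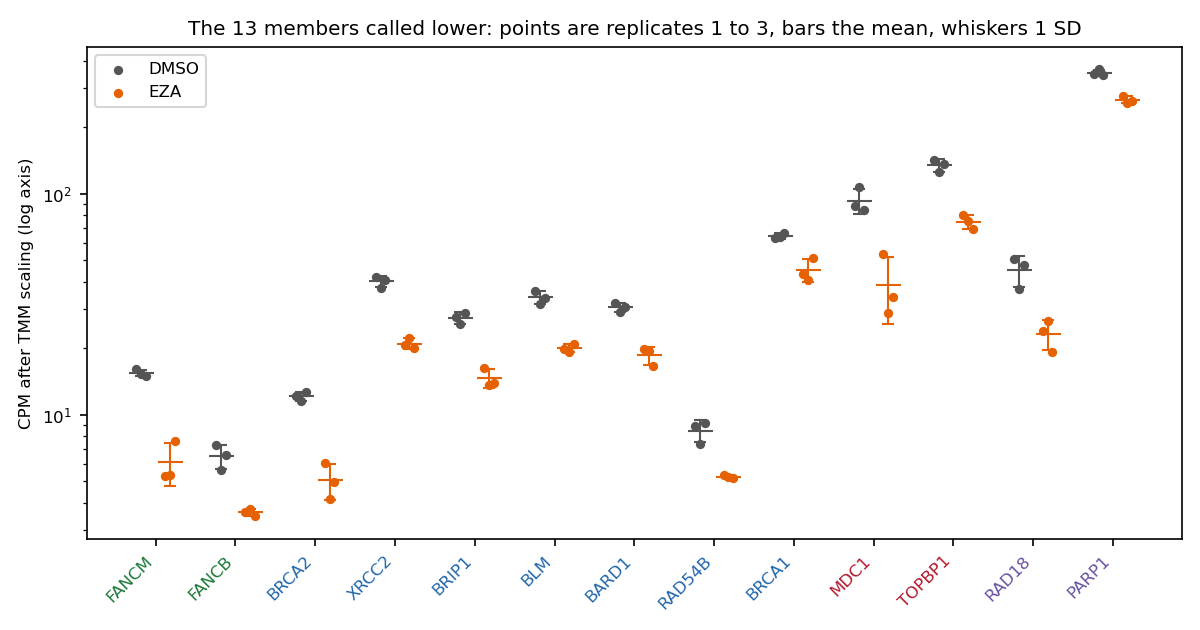
Normalised read count of the 13 genes called lower (vertical axis, CPM after TMM scaling, log axis) in the 3 DMSO and the 3 EZA libraries; points are replicates 1 to 3, long bars the mean and whiskers 1 SD. In each of the 13 genes the 3 EZA points lie below the 3 DMSO points, and the widest EZA spread on this axis is that of MDC1, from 28.8 to 53.5 CPM.

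Levels in FPKM as deposited spanned from 0.219 (RAD50) to 48.2 (PARP1) under DMSO. The gene length behind these values was the authors' choice. For genes such as RAD51B and PARP1 it was longer than the canonical transcript, so the order of genes depends on that choice. After PARP1 came NBN (22.6), UBE2T (22.3), FANCI (21.7) and TOPBP1 (18.03). At the low end, BRCA2 had 0.968 ± 0.04 FPKM under DMSO and 0.406 ± 0.07 under EZA (SD, n = 3 each), above only RAD50. The median level under DMSO was 4.98 FPKM in the 13 genes called lower and 4.90 FPKM in the 29 not called, and the calls included both PARP1 and BRCA2.

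**Figure D3:**
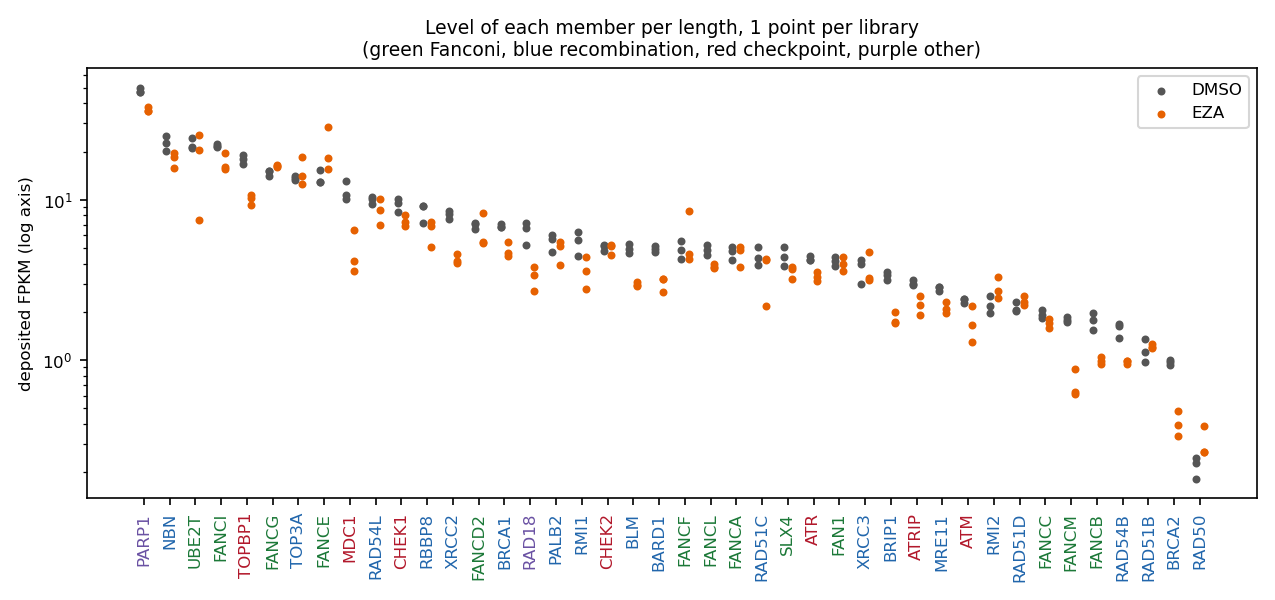
Level of the 42 genes (vertical axis, deposited FPKM with the authors' gene lengths, log axis), ordered by the DMSO mean, with 1 point for each of 3 DMSO and 3 EZA libraries. PARP1 is highest and RAD50 lowest, and the EZA points of UBE2T spread the most among the abundant genes.

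The decreases went with low GC content of the transcript. GC content and length were taken from the Ensembl canonical transcript of each gene. The 13 genes called lower had a median GC content of 40.03% and a median length of 5761 bases, against 44.2% and 4128 bases for the 29 not called. GC content was lower in the called genes of the Fanconi class (37.2% against 46.5%) and the recombination class (38.02% against 42.8%), but higher in those of the checkpoint class (47.5% against 41.6%), where 2 genes were called. Over the 42 genes Spearman's rho between GC content and log2 fold change was 0.63, and between length and log2 fold change it was -0.38. The same held across all 11430 tested protein-coding genes (rho of 0.54 and -0.26). These are correlations across genes measured in the same 6 libraries, and genes are not independent replicates. Recombination genes had the lowest median GC content, 41.2%, then checkpoint genes, 41.9%, and Fanconi genes, 44.2%.

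Among protein-coding genes with a GC content of up to 40%, the median log2 fold change was -0.31 and 20.1% of 1980 genes were called lower. The 12 genes of the set in that range (ATM, ATR, BARD1, BRCA2, BRIP1, FANCB, FANCL, FANCM, MRE11, NBN, RAD54B and RMI1) had a median of -0.66, all 12 were below the median of the range, and 6 were called lower. From 40% to 45%, 13.1% of 2423 genes were called lower, the median was -0.20, and the 15 genes of the set had a median of -0.35 with 5 called lower. Above 45%, 2 of 15 genes of the set were called lower, PARP1 (49.6% GC) and MDC1 (53.2% GC). Of all protein-coding genes, the share called lower was 7.6% from 45% to 50%, 4.19% from 50% to 55%, 2.09% from 55% to 60% and 0.774% above 60%. MDC1 lay 1.34 below the median of 0.08 in its GC range, the largest such distance of the 42 genes. FANCM (1.04 below) and BRCA2 (0.96 below) followed. ATRIP (58.6% GC) and SLX4 (57.6% GC) lay 0.66 and 0.52 below a range median of 0.20, and XRCC3 (62.8% GC) 0.46 below one of 0.44, although none of these 3 was called. In all, 32 of the 42 genes were below the median of their own GC range, with a median distance of -0.19. Among them were 10 of 13 Fanconi, 14 of 20 recombination and 6 of 7 checkpoint genes. The median distances of these classes were -0.14, -0.26 and -0.17. In the range from 45% to 50%, only 2 of 5 genes of the set were below the range median of -0.07, and their median was -0.04.

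**Figure D4:**
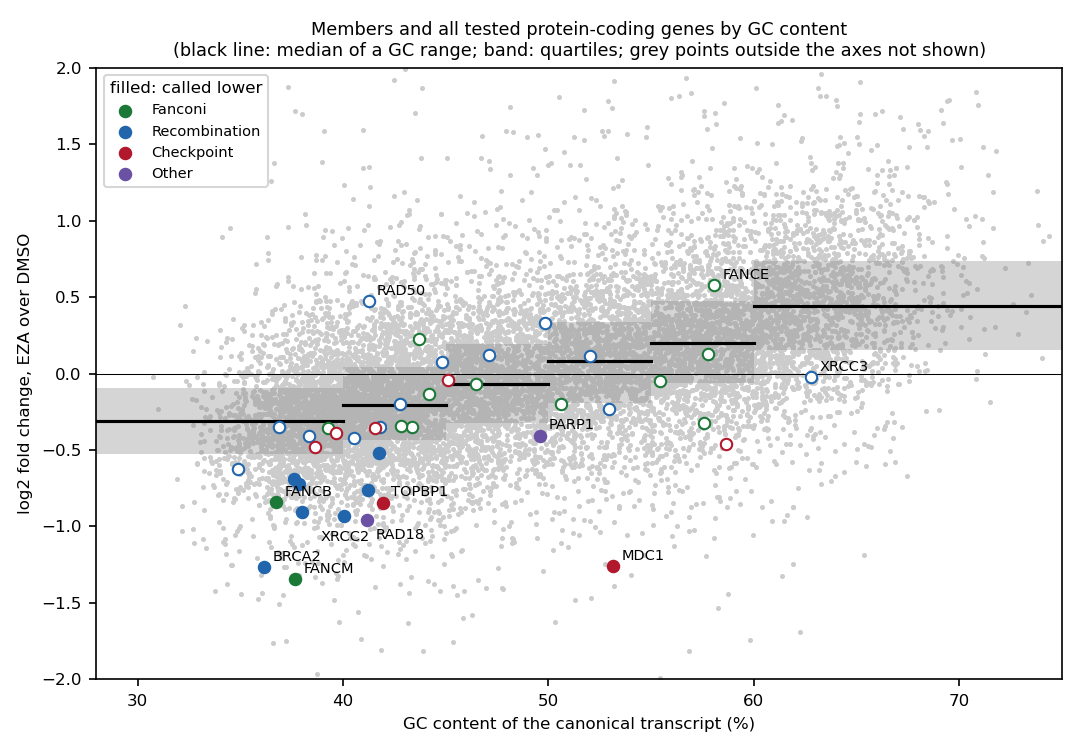
Log2 fold change, EZA over DMSO (vertical axis), against the GC content of the canonical transcript (horizontal axis, %) for the 42 genes in colour and all tested protein-coding genes in grey; black lines are the medians of 6 GC ranges, bands their quartiles and filled points the genes called lower. The medians climb from -0.31 at up to 40% GC to 0.44 above 60% GC, and MDC1 lies far below the band at its GC content.

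With the trend over GC content and length removed from each library, 11 of the 42 genes were called lower and 0 higher, beside 4.82% lower and 6.57% higher of all tested genes, and the median log2 fold change was -0.17. Of the 13 genes, 9 kept the call. BARD1 (-0.36, edgeR adjusted p = 0.0961), FANCB (-0.50, 0.0694), RAD54B (-0.37, 0.118) and BRCA1 (-0.25, 0.145) lost it. SLX4 (-0.47, adjusted p = 0.0248) and ATRIP (-0.69, adjusted p = 0.0247) gained it. The log2 fold change shrank from -1.27 to -0.82 for BRCA2, from -0.91 to -0.53 for BRIP1 and from -0.76 to -0.50 for BLM, and was -1.29 for MDC1 and -0.98 for FANCM. By class, 2 Fanconi, 4 recombination and 3 checkpoint genes were called. With EZA replicate 3 left out as well, 21 were lower, and RAD51D (0.35, adjusted p = 0.00555) was higher, beside 18.4% lower and 20.2% higher of all genes tested there. Whether base composition or length had a part in the counts was not tested beyond this removal.

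**Figure D5:**
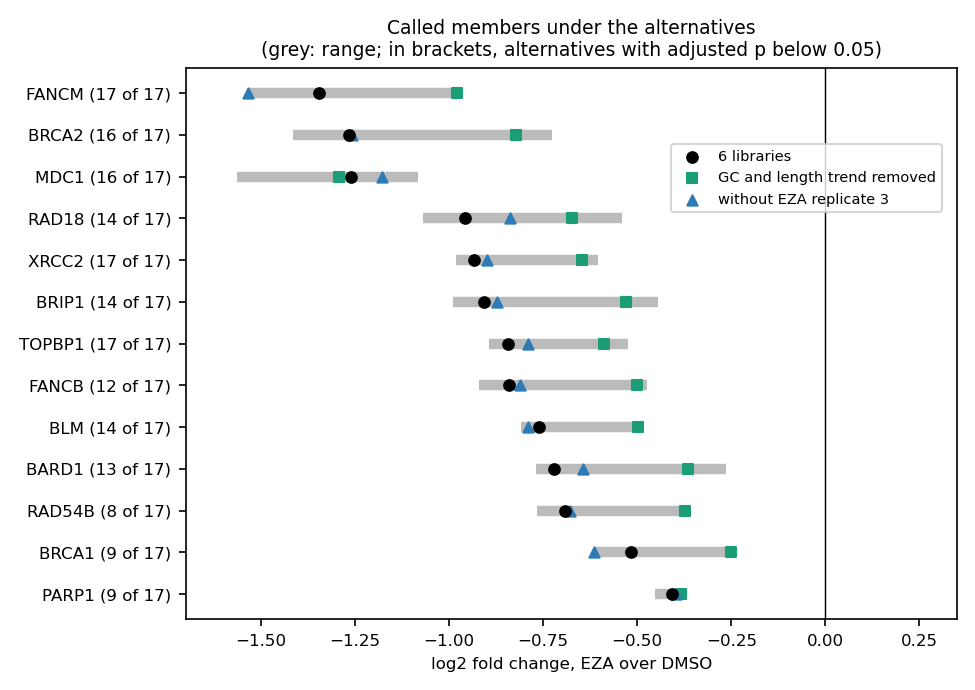
Log2 fold change, EZA over DMSO (horizontal axis), of the 13 genes called lower: black points with all 6 libraries, green squares with the GC and length trend removed, blue triangles without EZA replicate 3, grey bars the range over these and the other alternatives. Every bar lies left of 0, and the bracketed counts run from 17 of 17 alternatives for FANCM, XRCC2 and TOPBP1 to 8 of 17 for RAD54B.

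EZA replicate 3 was above both other EZA libraries in 24 of the 42 genes and below both in 11, beside 45.5% and 39.8% of all tested genes. The median log2 difference from the DMSO mean was -0.35 in EZA replicate 1, -0.45 in EZA replicate 2 and -0.27 in EZA replicate 3, so the set was lower in each. All 13 calls were also made without EZA replicate 3, and 11 further genes were then called: FANCD2, FANCI, SLX4, RAD54L, RMI1, MRE11, NBN, ATM, ATR, ATRIP and CHEK1. The low mitochondrial share of that library stands beside this difference, and its part in the result was not tested.

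A list of 88 other genes of the same pathways gave 17 lower and 4 higher of 83 tested, with a median log2 fold change of -0.22. Of all tested genes 7.82% were called lower and 9.89% higher. Of the Fanconi-linked genes 5 of 21 were lower and 3 higher. Among them REV3L, the catalytic subunit of a polymerase that crosses lesions, fell by 0.84 ± 0.15 (SE, n = 3 per group, edgeR adjusted p = 0.0103), the nuclease DCLRE1B fell by 0.68 ± 0.17 (0.0284) and the ubiquitin ligase RFWD3 fell by 0.46 ± 0.11 (0.0288). MUS81, a nuclease that cuts branched DNA, rose by 0.69 ± 0.15 (adjusted p = 0.0200), from 29.3 to 34.2 CPM under DMSO to 44.1 to 59.9 CPM under EZA. Of the other recombination genes 8 of 27 were lower and 0 higher, with the junction-cutting nuclease GEN1 at -0.89 ± 0.13 (adjusted p = 0.00651), the end-trimming nuclease EXO1 at -0.76 ± 0.12 (0.00752), FIGNL1 at -0.63 ± 0.15 (0.0276) and the helicase WRN at -0.56 ± 0.14 (0.0287). Of the other checkpoint genes 3 of 23 were lower: CLSPN, which lets ATR activate CHEK1, at -0.79 ± 0.13 (0.00902), PAXIP1 at -0.78 ± 0.16 (0.0147) and ETAA1, a second activator of ATR, at -0.67 ± 0.17 (0.0287). Of the end-joining genes 1 of 12 was lower, SHLD2, which protects ends from trimming (-0.77 ± 0.14, 0.0122), and 1 was higher, PAXX, which steadies the end-joining complex (0.73 ± 0.15, 0.0164). Both end-joining counts were near the shares over all tested genes. The 88 genes gave 33 lower and 10 higher without EZA replicate 3, 9 lower and 0 higher after removal of the GC and length trend, and 1 lower without DMSO replicate 1. Over all genes tested in those 3 analyses, the shares were 19.2% lower and 19.1% higher, 4.82% lower and 6.57% higher, and 0.451% lower. Without DMSO replicate 3 edgeR called 0, with 22 lower and 5 higher at an unadjusted p below 0.05, and without DMSO replicate 2, EZA replicate 1 or EZA replicate 2 there were 6, 11 and 10 calls.

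Markers of dividing cells were lower in the same libraries. Of 18 genes of G2 phase and mitosis 12 were called lower and 0 higher, with a median log2 fold change of -0.83, and their summed level was 2170 to 2305 CPM under DMSO and 1286 to 1316 CPM under EZA. Of 16 genes of S phase 7 were lower and 0 higher, with a median of -0.30 and a summed level of 2549 to 2692 CPM under DMSO and 2025 to 2154 CPM under EZA. The counts were 16 and 9 without EZA replicate 3, 11 and 4 after removal of the GC and length trend, 4 and 0 without DMSO replicate 1 and 5 and 0 without DMSO replicate 3. Where edgeR called 0 of the S-phase genes, 7 were lower at an unadjusted p below 0.05. For both lists and for the 42 repair genes the summed levels of the 2 groups did not meet (2048 to 2120 CPM under DMSO and 1525 to 1721 CPM under EZA for the 42). The part of the cell cycle in the lower repair transcripts was not tested.

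Some of the 42 genes share exon bases with a neighbour, and how shared reads were counted is not given in the sources used here. XRCC3 shares 76.7% of its exon bases with KLC1 on the opposite strand, ATRIP 26.7% with TREX1 on the same strand, RAD54L 19.9% with LRRC41, FANCA 19.6% with ZNF276 and FANCF 9.57% with GAS2, these 3 on the opposite strand. RAD54B, 1 of the 13 genes called lower, shares 66.0% with FSBP on the same strand, which had 14 counts in all. Without strand information, reads from opposite strands cannot be told apart, and TREX1 had 0 counts. The values of XRCC3, ATRIP, RAD54B, RAD54L and FANCA are therefore uncertain, as are those of RAD50. Also among the 13 genes called lower, MDC1 shares 9.20% with MDC1-AS1 on the opposite strand, which had 1 count.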

How the data were processed

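Counts and FPKM of 6 RKO libraries, 3 given DMSO and 3 given EZA, were analysed as deposited. Per the submitters' processing notes, the authors used FastQC, HISAT2, featureCounts and DESeq2 on GRCh38 (hg38), with no versions given. The deposited counts are whole reads per gene. The deposited FPKM are the authors' values, scaled to library size and to gene lengths that are not those of the canonical transcripts, and serve only for levels. Genes passing edgeR's filterByExpr (13503) were scaled by TMM and tested with edgeR 4.0.16 (R 4.3.3), robust quasi-likelihood, two-sided, with Benjamini-Hochberg adjustment and a threshold of 0.05. CPM are after TMM scaling. Symbols, transcripts and coordinates came from GENCODE 44, which held 58207 of the 58735 identifiers. Alternatives used limma 3.58.1, DESeq2 1.42.0, other scalings and filters, a replicate block, removal of a GC and length trend (lowess, span 0.3) and leaving out each library. The test was checked on simulated counts. The genes and lists were chosen with earlier results of these data known. Values in all 6 libraries are given for called genes and for the gene of each class with the highest fold change or FPKM. Of other pathway genes up to 4 called per class, with the smallest adjusted p, are named, and 1 that changed the other way.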

Additional observations from a re-analysis of the deposited data

How the results depend on the processing

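None of the 42 genes reversed a called direction under the 17 alternatives. For the 13 called genes 176 values under these alternatives kept the call and 45 lost it, and 29 values of the other 29 genes gained one. With no filter on low counts 33 other pathway genes were called, 25 lower and 8 higher of 87 tested, in place of 21. The shares over all genes tested there were 5.66% lower and 6.51% higher. With the GC and length trend removed there were 4 recombination and 9 other pathway genes, with a median of -0.17 over the 42 genes. Adding the replicate block to that left 4 of the 42, 1 Fanconi, 1 recombination and 3 other pathway genes, with a median of -0.19. Of all tested genes 1.71% were then called lower and 2.75% higher. With EZA replicate 3 left out and the GC and length trend removed there were 22 of the 42, 5 Fanconi, 5 checkpoint and 41 other pathway genes, with a median of -0.21. By the series' threshold there were 3 of the 42, and 1 each of Fanconi, recombination, checkpoint and other pathway genes. Leaving out 1 library gave 4 to 24 of the 42, 1 to 5 Fanconi, 2 to 11 recombination, 1 to 6 checkpoint and 0 to 43 other pathway genes, and medians of -0.39 to -0.32. Over all tested genes it gave 62 to 2649 lower and 158 to 2640 higher calls.

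The replicate block alone gave 10 of the 42 lower (2 Fanconi, 5 recombination and 2 checkpoint genes) and 17 other pathway genes, 12 lower and 5 higher. Of all tested genes it called 6.2% lower and 8.39% higher. BRCA1, RAD54B and PARP1 lost the call. Deviations from the group mean of same-numbered DMSO and EZA libraries correlated at 0.03, -0.17 and 0.03. With 3 libraries per group and EZA replicate 3 standing apart, these values cannot decide whether the numbers pair the samples. The common biological coefficient of variation was 18.4%, and with 3 libraries per group small differences could not be detected. FPKM carry no depth of their own, and how reads shared between genes were counted is not given.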
